A study of Caenorhabditis elegans with 6 samples.

Results

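The srw genes are a family of chemoreceptor genes of the nematode Caenorhabditis elegans, described here in hlh-30(tm1978), a strain mutant for hlh-30, and in the wild-type strain N2. Members were the genes whose symbol starts with srw- in the annotation of the array, read by probe sets that carry a single gene. A probe set is a group of short DNA probes that measure the same transcript. This gave 114 of the 17118 genes on the array, read by 115 probe sets, since only srw-67 had more than 1. The study comprised 6 Affymetrix C. elegans arrays, 3 of hlh-30(tm1978) and 3 of N2. Each array held total RNA of whole animals, with embryos, L1 larvae and L2 larvae of a biological replicate combined, from worms of both genotypes grown on plates at 20 °C. A value is therefore an average over stages and tissues, and fewer cells of a type cannot be told apart from less RNA per cell. The sources used here do not give the molecular nature of tm1978, nor whether the strain was outcrossed, so hlh-30 cannot be told apart from other differences between the strains.

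Chemoreceptors of nematodes are seven-pass membrane proteins coupled to G proteins, and most of those whose site is known act in the cilia of sensory neurons in the head and tail. A receptor of this kind is often made in only a few cells, so its transcript can be a very small part of whole-worm RNA. The srw family stands somewhat apart from the other chemoreceptor families, because its sequences resemble receptors for FMRFamide-like and other neuropeptides. HLH-30, a transcription factor of the basic helix-loop-helix class, corresponds to TFEB of mammals and is known for switching on genes of autophagy and lysosomes.

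The hlh-30 transcript served as the check of the labels. At the probe set that stands for the gene, of its 3, the hlh-30(tm1978) arrays read 10.52, 10.65 and 9.66 and the N2 arrays 12.05, 12.07 and 12.34 on the log2 scale. All 3 probe sets read lower on every mutant array than on every N2 array, as did 9.87% of the genes tested, and none was called (limma adjusted p 0.121 to 0.260). No source used here says where these probe sets lie relative to the altered part of the gene, so they check the labels only through this separation. The 2 arrays numbered 3 stood apart from their groups. The markers of early embryo and germline averaged 8.66 on hlh-30(tm1978) 3, against 7.34 and 7.40 on the other mutant arrays, and 7.41 on N2 3, against 8.05 and 7.80 on the other N2 arrays (means of log2 values over 13 markers). The deposited values ran from 2.04, a lowest value shared by all arrays, to 16.95.

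Almost no member of the family gave a signal in these RNA pools. Of the 114 srw genes, 100 (87.7%) lay at the lowest value on all 6 arrays, and 113 stayed at or under log2 4 on every array. Only srw-85 passed that level, and it did so on the N2 arrays alone. On the hlh-30(tm1978) arrays 105, 106 and 107 srw genes were at the lowest value, and on the N2 arrays 106, 106 and 103. These numbers overlap between the genotypes. Over all genes on the array, 5302 (30.97%) were at the lowest value on all arrays and 9113 (53.2%) passed the filter used for testing, a log2 value of 4 or more in 3 or more of the 6 arrays. Among srw genes 1 of 114 (0.877%) passed it. A value at or near the lowest shows only that the probe set gave no signal above its estimated background, not that the gene is unused in every cell.

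**Figure D1:**
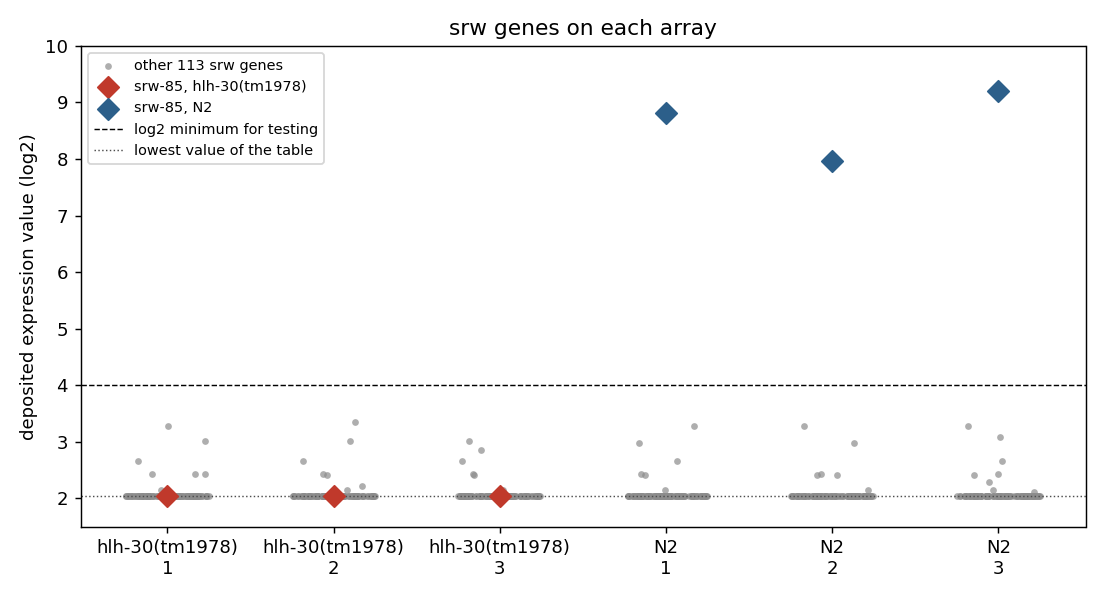
Deposited log2 expression value (vertical axis) of all 114 srw genes on each of the 3 hlh-30(tm1978) arrays and the 3 N2 arrays (horizontal axis), with srw-85 as a diamond and each other gene as a grey point, spread sideways for legibility. srw-85 lies at 2.04 on the mutant arrays and at 8.81, 7.97 and 9.20 on the N2 arrays, and the other 113 genes lie under log2 4 throughout.

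srw-85 (Entrez gene 182903, sequence name C25F9.1) is a protein-coding gene of chromosome V, read by probe set 178849_at. It was at 2.04, 2.04 and 2.04 on the hlh-30(tm1978) arrays and at 8.81, 7.97 and 9.20 on the N2 arrays (log2 values). All mutant arrays were at the lowest value of the table, the N2 arrays were all at least 3.97 log2 units above the level of 4, and the groups did not overlap. The mean was 2.04 in hlh-30(tm1978), with no spread because of the lowest value, and 8.66 ± 0.63 in N2 (SD, n = 3 each). The fitted log2 change was −6.61 (SE 0.33), with a limma p adjusted over all probe sets tested of 0.0210. This SE and p use a variance pooled over both groups, and the mutant group adds no spread at the lowest value. Both may therefore be too small. An exact permutation p (two-sided) was 0.1, the smallest that 3 against 3 arrays can give. Since the mutant values are only bounds, the fall from the N2 mean is best stated as at least 25.2-fold, which sets each mutant array to log2 4. This bounds the mutant side only and leaves out the spread of the N2 arrays. The gene was picked with its call already known from these arrays, so these p-values describe it and are no independent evidence.

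The srw count of 1 gene called stands beside 13 of the 9113 genes tested, or 0.143%, called at an adjusted p under 0.05 in either direction. Of the genes tested, 0.132% were called lower and 0.011% higher. srw-85 was the only srw gene tested, and it entered the test only through the N2 arrays, where it is high, so that it had to differ. No share of the family can be read from it. The groups did not overlap, with hlh-30(tm1978) lower, for 9.87% of the genes tested. Without the filter on dim probe sets the same change had a limma adjusted p of 0.0696. Without the 2 arrays numbered 3 the change was −6.35 (SE 0.35; limma adjusted p 0.0455). With any single array left out the change stayed between −6.96 and −6.35, and the limma adjusted p ranged from 0.0130 without N2 2 to 0.188 without N2 1. It was under 0.05 in 1 of these 6 fits.

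Within N2 the 3 srw-85 values spanned 1.23 log2 units, a 2.34-fold range, with N2 3 the highest and N2 2 the lowest. N2 3 was also the array where the markers of intestine and of body wall muscle averaged highest, at 11.42 against 10.93 and 10.91 on N2 1 and N2 2, and at 13.48 against 13.06 and 13.16. General neuronal markers were highest there too, at 10.46 against 10.15 and 10.30. Those of ciliated sensory neurons (6.81, 6.53 and 6.58 on N2 1, 2 and 3), of hypodermis and of early embryo and germline were not. The part of tissue content in the N2 spread of srw-85 was not tested. No such spread could be seen in hlh-30(tm1978), where even array 3, which stood apart in its embryo markers, was at the lowest value.

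A count was made of how often the pattern of srw-85 occurs on the array. The pattern was defined from the values of srw-85 itself, so the count is a description. Of the 22548 probe sets that are not controls, 1, that of srw-85, was above log2 4 on all N2 arrays and at the lowest value on all hlh-30(tm1978) arrays. For genes this is 1 of the 9035 above log2 4 on all N2 arrays (0.0111%). The reverse pattern, above log2 4 on all hlh-30(tm1978) arrays and at the lowest value on all N2 arrays, was found for 0 probe sets. By the size of the fitted change srw-85 came second of the 9113 genes tested, after the noncoding RNA gene tts-1 (−7.23). This rank takes the lowest value for the mutant arrays of srw-85, which is only a bound. With values under log2 4 set to 4 the change of srw-85 was −4.66.

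The other 113 srw genes differed by little between the genotypes. Their differences, hlh-30(tm1978) minus N2, ran from −0.12 to 0.13 log2 units, and 103 of the 114 srw genes had the same value on all 6 arrays. Apart from srw-85, 13 genes left the lowest value on some array, and 6 of the 113 had a range over 0.1 log2 units. None of these 13 was tested, since all lay under the log2 minimum of 4.

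On every array 7 srw genes were above the lowest value, and srw-85 was not among them. Closest under the level of 4 was srw-58, annotated as a pseudogene, with 3.28, 3.35 and 2.85 in hlh-30(tm1978) and 3.28 on each N2 array. Its lowest value came from hlh-30(tm1978) 3, and its other values were nearly the same on all arrays. srw-112, protein-coding, read 3.02 on each hlh-30(tm1978) array and 2.98, 2.98 and 3.08 on the N2 arrays. srw-134, also protein-coding, read 2.66 on each hlh-30(tm1978) array and 2.66, 2.42 and 2.66 on the N2 arrays. In both genes the mutant values lay within the N2 range. The pseudogenes srw-104 and srw-37 and the protein-coding srw-141 had the same value on all arrays (2.44, 2.05 and 2.16), and the pseudogene srw-105 read 2.44, 2.42 and 2.42 in hlh-30(tm1978) and 2.42 on each N2 array.

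The remaining 6 genes left the lowest value on a single array. srw-72, srw-133 and srw-71 did so on a mutant array, reaching 2.44 on hlh-30(tm1978) 1, 2.22 on hlh-30(tm1978) 2 and 2.05 on hlh-30(tm1978) 1. srw-121, srw-47 and srw-122 did so on N2 3, reaching 2.28, 2.11 and 2.05. Such single values lie far under the level used for testing, and no difference between genotypes was read from them.

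**Figure D2:**
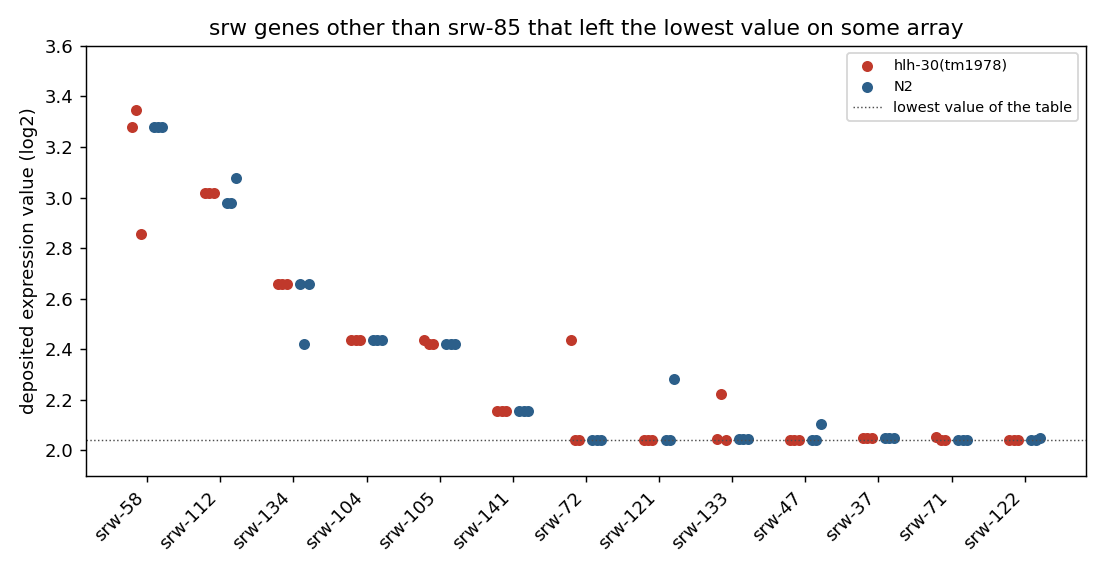
Deposited log2 expression value (vertical axis) of the 13 srw genes other than srw-85 that left the lowest value on some array (horizontal axis), with 3 points for hlh-30(tm1978) and 3 for N2. The points of both genotypes lie on the same level for most genes, and none passes 3.35.

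The annotation of RefSeq places 100 of the 114 genes on chromosome V (assembly WBcel235), 5 on chromosome II, 4 each on I and IV and 1 on III. All 14 genes off chromosome V were at the lowest value on all arrays, against 86 of the 100 on chromosome V. RefSeq lists 89 of the members as protein-coding, of which 80 (89.9%) were at the lowest value on all arrays, and 25 as pseudogenes, of which 20 (80.0%) were. These shares are a description without a test. By sequence name the members fall on 57 clones, the mapped pieces of the genome that give worm genes their names. The 14 genes not at the lowest value on all arrays came from 10 clones, of which 4 gave 2 genes each. On K12D9, with 9 srw genes, these were srw-112 and srw-121. On T05B4 they were srw-133 and srw-134, on R11G11 srw-104 and srw-105, and on H27D07 srw-122 and srw-141. Neighbouring srw genes can be near-identical copies, and whether their probes read each other's transcripts was not tested. C25F9, the clone of srw-85, held no other member.

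A further 9 probe sets carry an srw gene together with another gene, and they were not used for the members. They name 14 srw genes, 5 of which have no probe set of their own. None was above log2 4 on any array, and 7 of the 9 were at the lowest value on all arrays. The probe set shared by srw-119 and srw-120 read 2.45 on every array, and that shared by srw-4 and F37B4.14 left the lowest value only on N2 3, at 2.09. RefSeq lists 145 srw genes, so 31 were not read by a probe set of their own.

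The genes beside srw-85 gave little signal in either genotype. Of the 5 nearest genes on each side in the RefSeq table, 3 had a probe set, and 1 of these passed the filter. This was M04C3.1, which read 5.06, 5.53 and 5.06 in hlh-30(tm1978) and 4.96, 5.06 and 4.68 in N2, or a log2 change of 0.32 with an SE of 0.18 and a limma adjusted p of 0.683. The genotypes overlapped there. C25F9.2, the next gene on the other side, and C25F9.9 were at the lowest value on all arrays. When the 5 nearest genes with a probe set on each side were taken instead, a choice made after the values were seen, 5 of the 10 were at the lowest value on all arrays and M04C3.1 was again the only one tested. The next srw genes along the chromosome, srw-84 and srw-38, were both at the lowest value on all arrays, with 7 and 55 measured genes between them and srw-85. Because most neighbours were at or near the lowest value in N2 already, they could not have shown a fall, and whether the DNA around srw-85 differs between the strains was not tested.

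**Figure D3:**
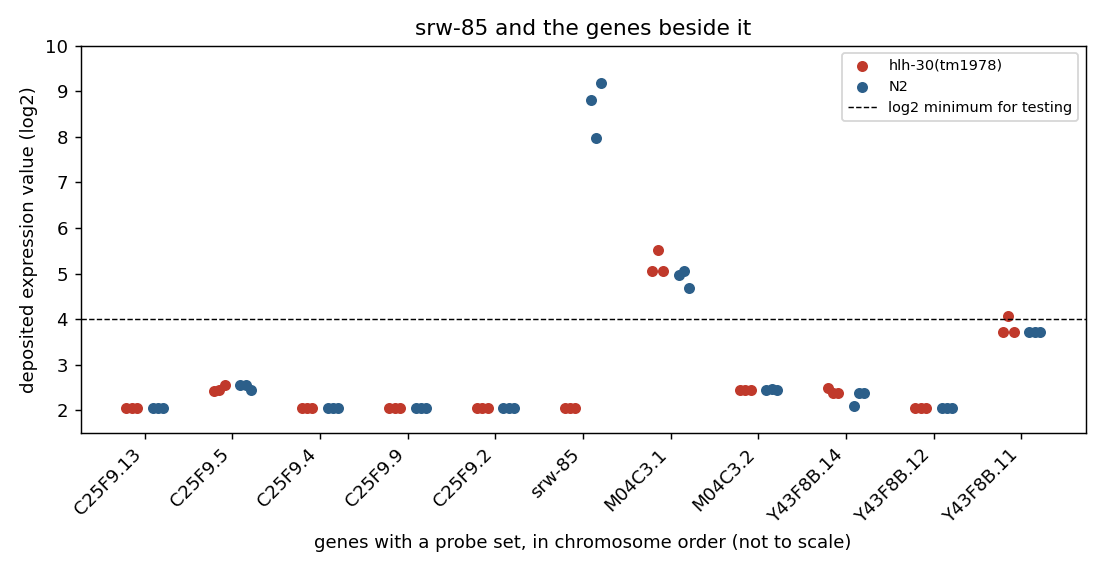
Deposited log2 expression value (vertical axis) of srw-85 and the 5 nearest genes with a probe set on each side, in chromosome order and not to scale (horizontal axis), with 3 points for hlh-30(tm1978) and 3 for N2. Only srw-85 separates the genotypes, and M04C3.1 is the only neighbour above log2 4 on every array.

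The low signal of the srw genes was common to most chemoreceptor families on this array. Of 1161 genes in 21 other chemoreceptor families, 1027 (88.5%) were at the lowest value on all arrays, against 87.7% of the srw genes. Among the 16 of these families with at least 20 genes the share ran from 79.3% to 100%, and 10 of them had a higher share than srw. The smaller srr family differed, with 4 of its 9 genes (44.4%) at the lowest value on all arrays and 4 passing the filter. On single arrays the share at the lowest value was between 90.4% and 93.9% for srw genes and between 89.8% and 91.7% for the other families. Peptide receptor genes, the group whose sequences the srw family resembles, were at the lowest value on all arrays in 39 of 96 cases (40.6%). These shares have no test, and nothing here sets the srw family apart from the other chemoreceptors.

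**Figure D4:**
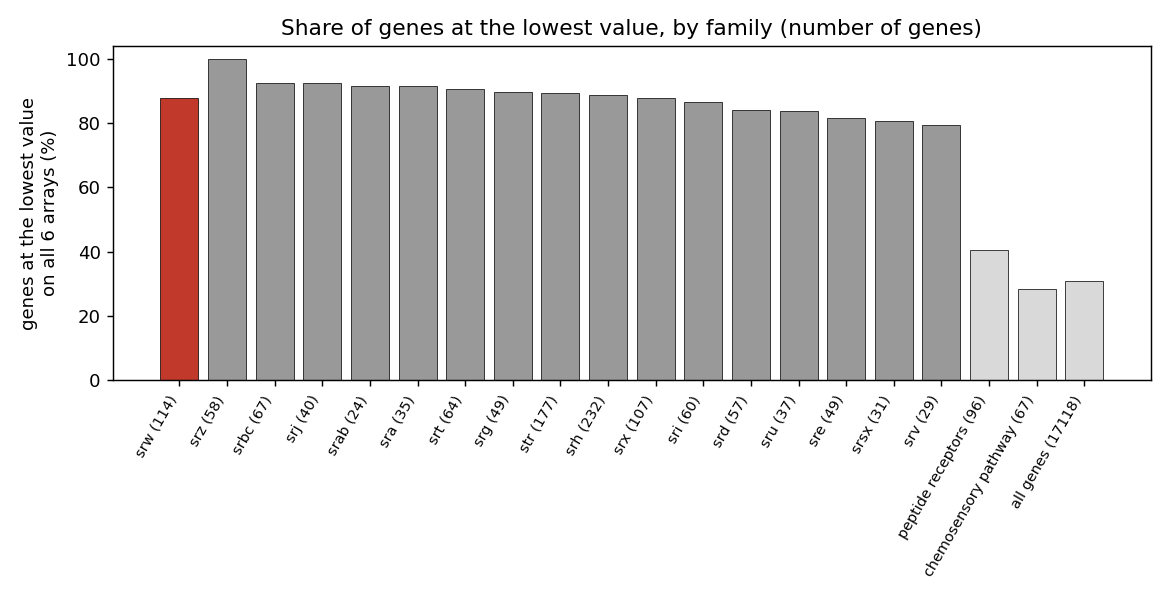
Share of genes at the lowest value on all 6 arrays, in percent (vertical axis), for srw, the 16 other chemoreceptor families of at least 20 genes, and 3 wider groups, with the number of genes in brackets (horizontal axis). The srw bar, 87.7%, lies within the range of these 16 families, 79.3% to 100%, while all genes together reach 30.97%.

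Of the other chemoreceptor genes, 17 passed the filter, and none was called higher or lower. Without adjustment 1 of the 17 had a limma p under 0.05, beside 8.59% (783) of the 9113 genes tested. The fitted changes ran from −0.67 to 0.81, with 7 below 0, 7 above 0 and 3 with identical values on all arrays, and a median of 0 beside −0.010 over all genes tested. The lowest of these changes, that of srsx-34, was −0.67 (SE 0.43; limma adjusted p 0.713), and its values were 6.91, 6.91 and 6.71 in hlh-30(tm1978) against 7.17, 6.91 and 8.44 in N2. The genotypes overlapped, and the difference came mainly from N2 3. srr-3 was the only gene of the 17 whose groups did not overlap, beside 3.76% of all genes tested that lay wholly higher in hlh-30(tm1978). It read 4.63, 4.82 and 4.47 in hlh-30(tm1978) and 3.47, 3.82 and 4.20 in N2, and changed by 0.81 on that scale, with an SE of 0.21 and a limma adjusted p of 0.338. sre-4 and srv-1 changed by −0.35 and −0.23, with limma adjusted p of 0.705 and 0.780. N2 3 was the highest of the N2 arrays for 7 of the 17 genes, as it was for srw-85. In the rest of the 17 the highest N2 value was tied between arrays, so no other N2 array was highest alone. The same count over all genes tested was not made, so nothing particular to chemoreceptors can be read from it.

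**Figure D5:**
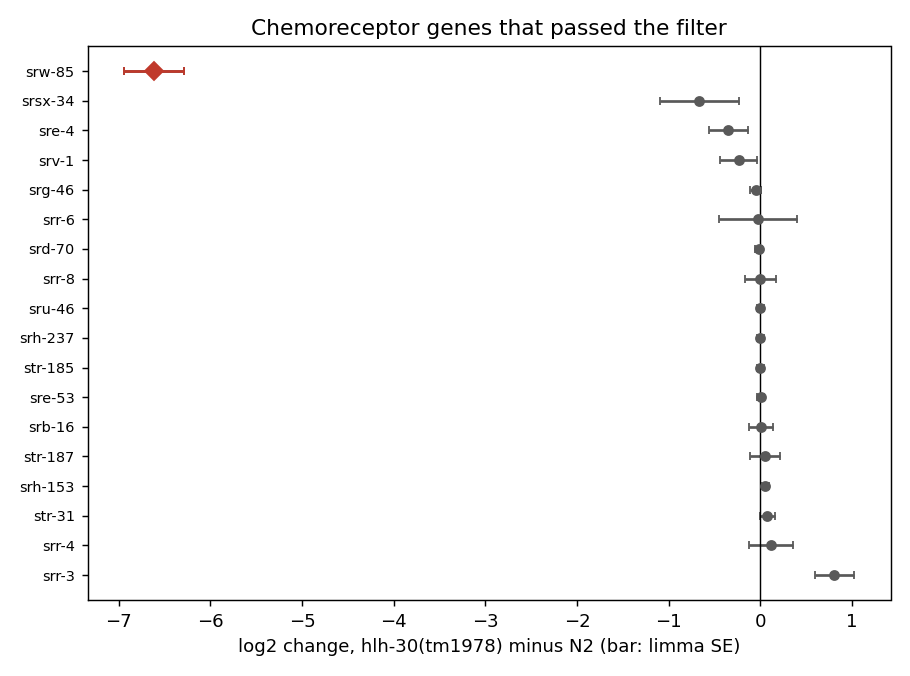
Fitted log2 change, hlh-30(tm1978) minus N2 (horizontal axis), of the 18 chemoreceptor genes that passed the filter (vertical axis), with bars of 1 limma SE. srw-85 lies at −6.61 and the other 17 lie between −0.67 and 0.81.

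None of the genes known to act with chemoreceptors was called. Of 67 genes of the chemosensory pathway on the array, 31 passed the filter, 19 of them with a fitted change below 0, and their median was −0.057 beside −0.010 over all genes tested. Without adjustment 1 of the 31 had a limma p under 0.05, beside 8.59% of all genes tested. It was fat-3, a fatty acid desaturase that makes polyunsaturated fatty acids used in sensory signalling. fat-3 read 11.08, 11.16 and 10.94 in hlh-30(tm1978) and 11.57, 11.47 and 11.25 in N2, and changed by −0.37 on that scale, with an SE of 0.11 and a limma adjusted p of 0.404. Its mutant arrays lay under all N2 arrays, as did those of 9.87% of the genes tested. The calcineurin subunit gene tax-6 changed by −0.34 (SE 0.17; limma adjusted p 0.647). odr-8, which is needed to bring odorant receptors to the cilia, changed by −0.20 (SE 0.11; limma adjusted p 0.665), and the guanylyl cyclase gene gcy-22 by 0.12 (SE 0.073; limma adjusted p 0.694).

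Of the 96 peptide receptor genes, 27 passed the filter and none was called, with 14 below 0 and a median of −0.011. Without adjustment 1 of the 27 had a limma p under 0.05, beside 8.59% of all genes tested. It was npr-41, a gene of the neuropeptide receptor family. It read 7.58, 7.46 and 7.56 in hlh-30(tm1978) and 6.78, 6.72 and 6.39 in N2, so that all mutant arrays lay above all N2 arrays, as in 3.76% of the genes tested. Its log2 change was 0.90 (SE 0.12; limma adjusted p 0.0957). frpr-18, dmsr-8 and npr-2 changed by −0.25, 0.24 and −0.28, with limma adjusted p of 0.634, 0.643 and 0.690.

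Markers of tissues a whole worm holds were set beside srw-85. The 9 tested markers of ciliated sensory neurons averaged 6.77, 6.87 and 6.86 on the hlh-30(tm1978) arrays and 6.81, 6.53 and 6.58 on the N2 arrays. The genotypes overlapped, with 3 of the 9 fitted below 0, none called, and 0 at an unadjusted limma p under 0.05, beside 8.59% of all genes tested at that p and 0.143% called. Of the 16 such markers on the array 4 (osm-3, che-2, bbs-2 and xbx-1) were at the lowest value on all arrays, as were 2 of 14 general neuronal markers (rgef-1 and unc-31). Neurons were therefore represented in these values by only part of their markers. The 12 tested general neuronal markers had a median change of −0.089, with 8 below 0, none called and 0 at an unadjusted limma p under 0.05. Intestine markers were below 0 in 9 of 10 cases (median −0.30), with none called and 3 at an unadjusted limma p under 0.05. Body wall muscle markers were below 0 in 10 of 10 cases (median −0.62), with 1 called (tnt-2) and 6 at an unadjusted limma p under 0.05. Hypodermis markers were below 0 in 4 of 7 cases (median −0.12) and markers of early embryo and germline in 5 of 13 (median 0.038), with none called and 1 and 0 at an unadjusted limma p under 0.05. The 10 muscle markers averaged 12.72, 12.80 and 12.49 in hlh-30(tm1978) and 13.06, 13.16 and 13.48 in N2. No source used here names the cells that make srw-85, and the part of tissue content in its difference was not tested.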

How the data were processed

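Whole-worm RNA of 3 hlh-30(tm1978) and 3 N2 samples was measured on Affymetrix arrays, and samples were grouped by their titles. The values deposited by the authors are on a log2 scale, with 1 value for each probe set on each array. GCRMA and limma are named in the labels, per the submitters' processing notes; no source used here gives their versions or settings. Background correction of this kind pulls dim probe sets to a shared lowest value and can make values identical between arrays, so differences between dim genes are compressed. Precision is limited by there being 3 arrays per genotype.

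Of 22625 probe sets, 77 controls were left out. Genes were named through the platform annotation from the 20766 probe sets with 1 gene (20701 matched to RefSeq by Entrez number, 0 symbols changed), and a gene was represented by its probe set with the highest mean over the arrays. The brightness of probe sets was used to choose a gene's probe set, the srw genes to name and the genes tested. The shares of genes at the lowest value rest on it too. How far these shares depend on the probes rather than on the RNA was not tested. Values within 0.005 of the lowest value counted as at it. The 12060 probe sets at log2 4 or more on at least 3 arrays entered a moderated linear model without covariates (limma 3.58.1, R 4.3.3). P-values were adjusted over all of them by Benjamini-Hochberg, with a threshold of 0.05. The fit was tested on simulated data in which no values were held at a lowest value, so that test does not cover the case of srw-85.

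The members and gene lists were chosen with earlier results of these data known. Named were srw-85, every srw gene that passed the filter, the brightest srw genes, the genes beside srw-85 and, per list, up to 4 tested genes with the smallest p. The 13 srw genes off the lowest value and the shared probe sets were named after their values were seen. Alternatives covered the filter, normalization, flooring, variance model, array weights, probe sets, the replicate number as a block and arrays left out. Fits with arrays left out kept the same probe sets. No protein or promoter sequences were used, so comparisons of protein likeness and promoter motifs were not made.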

Additional observations from a re-analysis of the deposited data

How the results depend on the processing

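The direction of srw-85 was the same in all 16 alternatives. With every mutant array at the lowest value and every N2 array above log2 4, it could not have turned and is no support. The limma adjusted p of srw-85 was under 0.05 in 9 of the alternatives and over it in 7. It ran from 0.00360 (array quality weights) to 0.430 (replicate block). The change was −6.61 in each of the following where the call was lost: no filter (0.0696), the replicate block (0.430), and without hlh-30(tm1978) 1, 2 or 3 (0.167, 0.129 and 0.0603). It was also lost without N2 1 (−6.54, 0.188) and N2 3 (−6.35, 0.0636). The lowest change with 1 array left out was −6.96, without N2 2 (0.0130). With values under log2 4 set to 4 the change was −4.66 (0.0349). The count of srw genes called follows srw-85, at 1 or 0, being 0 with no filter and with the replicate block, and 0 to 1 with single arrays left out. All genes called numbered 13, against 1 with no filter, 0 with the replicate block, 589 with array quality weights, 204 without both arrays numbered 3 and 0 to 2 with single arrays left out. Fewer arrays leave fewer degrees of freedom; otherwise the cause was not tested. The deviations of same-numbered arrays correlated at −0.41, −0.42 and −0.52, and 0 of 6 arrays correlated best with their own number. The arrays numbered 3 stood apart in opposite directions, which could hide a shared culture or day. Whether the replicate numbers pair the arrays therefore cannot be decided from these values. With array quality weights 1 other chemoreceptor gene (srr-3, higher), 1 pathway gene (fat-3, lower) and 2 peptide receptor genes (npr-41 and dmsr-8, higher) were called, against 0 in each list otherwise. The number of srw genes above log2 4 on at least 3 arrays was 1, against 3 with log2 3 in place of 4. At log2 4 it was 0 without any single N2 array, by construction, and 1 without any single mutant array (0 to 1). The number above log2 4 on any array was 1 with each array left out in turn, a count added after seeing the data.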
